A study of Mus musculus with 18 samples.

Results

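The type 2 vomeronasal receptor genes (Vmn2r) were taken as all protein-coding genes on chr1-19 whose symbol is Vmn2r followed by a number in GENCODE vM21 (mm10), which gave 119 of 20807 protein-coding genes. The study mapped chromatin in mouse liver by ChIP-Seq and asked how contacts with the nuclear lamina, heterochromatin and binding of Foxa2, a pioneer factor of hepatocytes, differ with age. Lamin B1 and H3K9me3 were profiled in male C57BL/6 mice of 3 months (young) and 21 months (old), with 2 replicates per antibody and age. Foxa2 was profiled at 12 weeks in male Zmpste24 KO mice and male wild-type littermates, with 3 replicates per genotype. The Zmpste24 KO mice lack the protease that matures prelamin A and model premature aging. The study names C57BL/6 for the mice of 3 and 21 months and refers to an earlier report for the Zmpste24 line. The deposited results are 6 lists of called regions, 1 per condition, made after the replicates had been merged. They hold positions and no signal, score or depth, so no spread between mice could be computed, and a region outside a list is a region that was not called. A gene is counted as called where at least 1 bp of its body lies in a region. The lists contain no expression values, and the liver label could not be checked against marker genes.

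Type 2 vomeronasal receptors are class C G protein-coupled receptors with a large extracellular domain, which sensory neurons of the basal vomeronasal organ use to detect peptide and protein pheromones. Each neuron uses very few of them, and they are not known as liver genes. The genes arose by repeated tandem duplication, so neighbouring genes can be nearly identical in sequence. In many cell types such sensory receptor clusters lie in AT-rich, silent chromatin, and H3K9me3 and attachment to the nuclear lamina are hallmarks of that state.

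The 119 genes lay on 7 chromosomes in 16 groups, here called clusters, in which less than 1 Mb separated neighbouring bodies. Chromosome 7 held 51 genes, chromosome 17 held 31, chromosome 5 held 11, chromosome 6 held 9, chromosome 10 held 8, chromosome 3 held 7 and chromosome 14 held 2. There were 12 clusters of at least 2 genes, and 4 genes stood alone: Vmn2r18 on chromosome 5, Vmn2r28 on chromosome 7, and Vmn2r118 and Vmn2r120 on chromosome 17. The cluster on chromosome 7 from Vmn2r29 to Vmn2r52 was the largest, with 24 genes in 2950 kb. It was followed by 22 genes from Vmn2r90 to Vmn2r110 on chromosome 17 and by 15 genes from Vmn2r65 to Vmn2r79 on chromosome 7. The cluster spans added up to 13.6 Mb and contained 80 Vmn2r pseudogenes and 47 other protein-coding genes. Genes of a cluster share regions, so they are not independent observations.

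Near-identity of the copies bears on what the lists could record, because reads that aligned to more than 1 place were discarded. The 300-base RefSeq promoters (GRCm38.p6), from 250 bases before the start to 50 after it, were found for 113 of the 119 genes. In 3 pairs of genes the promoters were identical over all 300 bases, and 31 genes had a partner that matched at 95% of positions or more. The median identity of a gene to its best partner, compared base by base without gaps, was 72.3%. The stretch from 250 to 121 bases before the start is printed for 4 genes of the largest cluster, to show how far this goes. Capitals mark the bases that differ from Vmn2r31.
Vmn2r31, chr7:7399748-7399877, minus strand: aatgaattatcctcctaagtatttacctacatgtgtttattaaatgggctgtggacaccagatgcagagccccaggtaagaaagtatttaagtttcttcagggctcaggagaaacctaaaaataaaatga
Vmn2r33, chr7:7566907-7567036, minus strand: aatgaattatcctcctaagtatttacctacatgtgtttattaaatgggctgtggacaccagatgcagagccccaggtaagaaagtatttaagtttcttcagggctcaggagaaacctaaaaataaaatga
Vmn2r44, chr7:8383359-8383488, minus strand: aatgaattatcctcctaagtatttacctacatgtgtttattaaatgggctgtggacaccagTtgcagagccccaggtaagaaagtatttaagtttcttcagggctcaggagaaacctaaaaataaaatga
Vmn2r38, chr7:9097886-9098015, minus strand: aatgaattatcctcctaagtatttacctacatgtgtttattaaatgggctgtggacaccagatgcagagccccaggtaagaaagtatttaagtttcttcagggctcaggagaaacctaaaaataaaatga
Of these, Vmn2r33 and Vmn2r38 matched Vmn2r31 at all 130 bases and Vmn2r44 at 129 of 130, so a read lying wholly in the stretch of Vmn2r31 has more than 1 place of origin in the genome. The 250 bases before the RefSeq start are shown for Vmn2r6 and Vmn2r7 on chromosome 3, which belong to the family C of receptors, the branch that basal vomeronasal neurons express together with other family members. Capitals again mark the positions at which the pair differ.
Vmn2r6, chr3:64559819-64560068, minus strand: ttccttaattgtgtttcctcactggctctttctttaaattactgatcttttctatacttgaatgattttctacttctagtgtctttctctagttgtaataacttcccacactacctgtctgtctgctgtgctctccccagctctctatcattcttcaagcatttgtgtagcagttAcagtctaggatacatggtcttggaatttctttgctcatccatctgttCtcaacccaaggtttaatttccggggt
Vmn2r7, chr3:64719603-64719852, minus strand: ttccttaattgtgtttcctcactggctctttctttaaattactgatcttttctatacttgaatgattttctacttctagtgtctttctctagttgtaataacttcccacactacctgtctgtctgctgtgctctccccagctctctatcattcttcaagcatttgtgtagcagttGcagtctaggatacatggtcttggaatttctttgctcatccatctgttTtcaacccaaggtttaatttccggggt
This pair differed at 2 of 250 bases.

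Sequence that occurs once in the genome was measured by sampling a word of 40 bases, a read length of the study, at every 50th base and counting its copies on both strands. In the 119 gene bodies 64.1% of words were found once, against 91.9% in all protein-coding gene bodies. The share per gene ran from 0% in Vmn2r46 over a median of 72.5% to 96.5% in Vmn2r105. There were 14 genes under 10%, of which 13 lay in the largest cluster on chromosome 7 and the other was Vmn2r21 on chromosome 6. In that chromosome 7 cluster 15.3% of sequence was found once, and its last member, Vmn2r52, stood out with 92.3%. By contrast, the 15-gene cluster of chromosome 7 reached 87.3% and the 22-gene cluster of chromosome 17 reached 79.9%. Of the words found more than once, 59.1% lay in sequence masked as repeat and 40.9% outside it. Between 2 and 10 copies were found for 62.7% of them, and 36.8% both had so few copies and lay outside masked sequence. With words of 60 bases the share found once was 73.0%, and Vmn2r46 and Vmn2r47 remained at 0%.

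No type 2 vomeronasal receptor gene met a lamin B1 region in young or in old livers. The counts were 0 of 119 at both ages, whereas 40.9% of all protein-coding genes met a young region and 68.3% an old one. Accordingly all 119 genes fell in the class called at neither age, while 36.6% of protein-coding genes were called at both ages, 4.36% in young livers alone and 31.7% in old livers alone. Lamin B1 regions covered 27.6% of all protein-coding gene body bases in young and 52.2% in old livers. The receptor genes also lay far from these regions. In young livers the distance to the nearest region ran from 30.3 kb for Vmn2r117 to 2950 kb for Vmn2r47, with a median of 849 kb, against a median of 81.4 kb over protein-coding genes. In old livers it ran from 6.42 kb for Vmn2r83 to 3970 kb for Vmn2r100, with a median of 1050 kb, while the median protein-coding gene was inside a region, at 0 kb. More than 500 kb separated 81 receptor genes from a young region and 83 from an old region, compared with 26.3% and 15.3% of protein-coding genes.

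**Figure D1:**
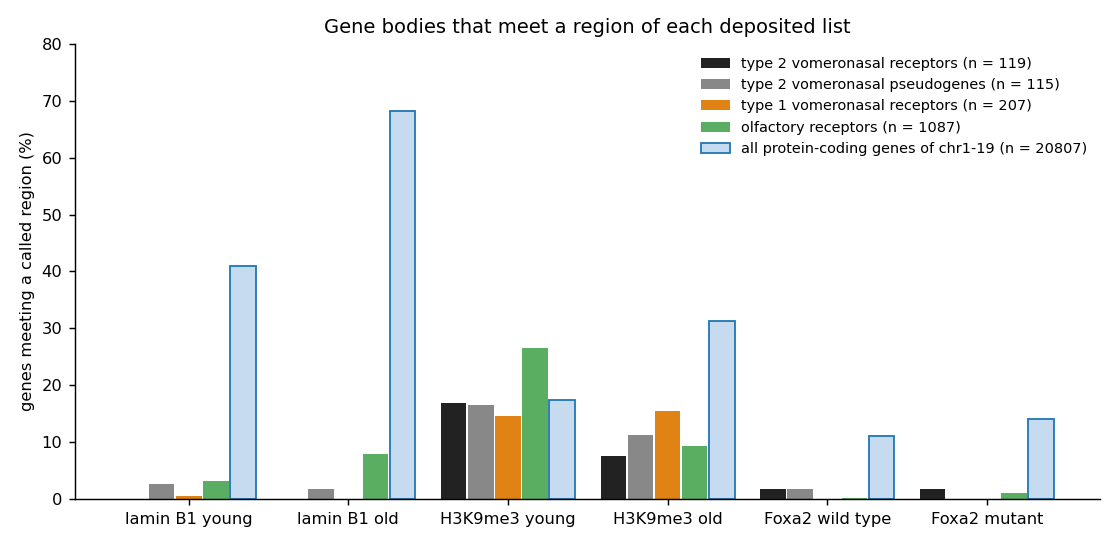
Percent of gene bodies (vertical axis) that meet at least 1 region of each of the 6 lists (horizontal axis), for the type 2 vomeronasal receptor genes, their pseudogenes, type 1 vomeronasal receptors, olfactory receptors and all protein-coding genes of chr1-19. The receptor genes have no bar in either lamin B1 list, where all protein-coding genes reach 40.9% and 68.3%, and stand at 16.8% and 7.56% in the H3K9me3 lists.

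Lamin B1 regions approached several clusters without reaching a gene. On chromosome 17 a young region (chr17:22670001-22850000) lay inside the cluster from Vmn2r111 to Vmn2r117, in the interval between Vmn2r112 and Vmn2r113, and overlapped the zinc finger gene Zfp945. No old lamin B1 region was called there, although an H3K9me3 region (chr17:22680001-22890000) with the same ends was present at both ages. On chromosome 10 an old lamin B1 region (chr10:79500001-81650000) began 6.42 kb beyond Vmn2r83, where the nearest young one (chr10:79590001-80430000) began 96.4 kb away. At the other extreme, Vmn2r90 at the edge of the 22-gene cluster was 33.7 kb from a young region, but the nearest old region was 2220 kb away. The 2 ages thus differed in the distance of individual clusters in both directions.

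The absence of lamin B1 calls has to be read beside the base composition and uniqueness of these genes. Median GC content of the receptor gene bodies was 36.4% (32.9 to 41.8%), compared with 45.4% over protein-coding genes. Across the 239337 windows of 10 kb of chr1-19, the share inside a young lamin B1 region rose from 4.57% of windows under 34% GC to 38.6% of those at 50% GC or more. For the old list the same share ran from 0.208% to 98.6%. The study cites earlier work for lamina-associated domains being A/T-rich, whereas both lists held a larger share of GC-rich than of AT-rich windows. For its own lamin B1 regions, the study reports CG-rich motifs as more prevalent in old livers. It reports A/T-rich motifs as enriched in regions of young livers alone and in those shared by both ages. The count of 0 is thus an absence of calls in these lists, and position at the lamina was not measured otherwise. A total of 477 windows met a receptor gene, and 0 of them were called in either list, against 19.5% of all windows in young and 38.8% in old livers. When all windows were weighted to the GC content of the receptor windows, the shares became 10% in young and 5.71% in old livers. When they were weighted to the GC content and the uniqueness of these windows together, they became 5.65% and 3.05%. Among windows in which at least 90% of words were found once, 0 of 103 receptor windows were called at either age, against 23.5% and 48.5% of 166829 such windows. GC content and uniqueness moved with the result, and their part in it was not tested.

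**Figure D2:**
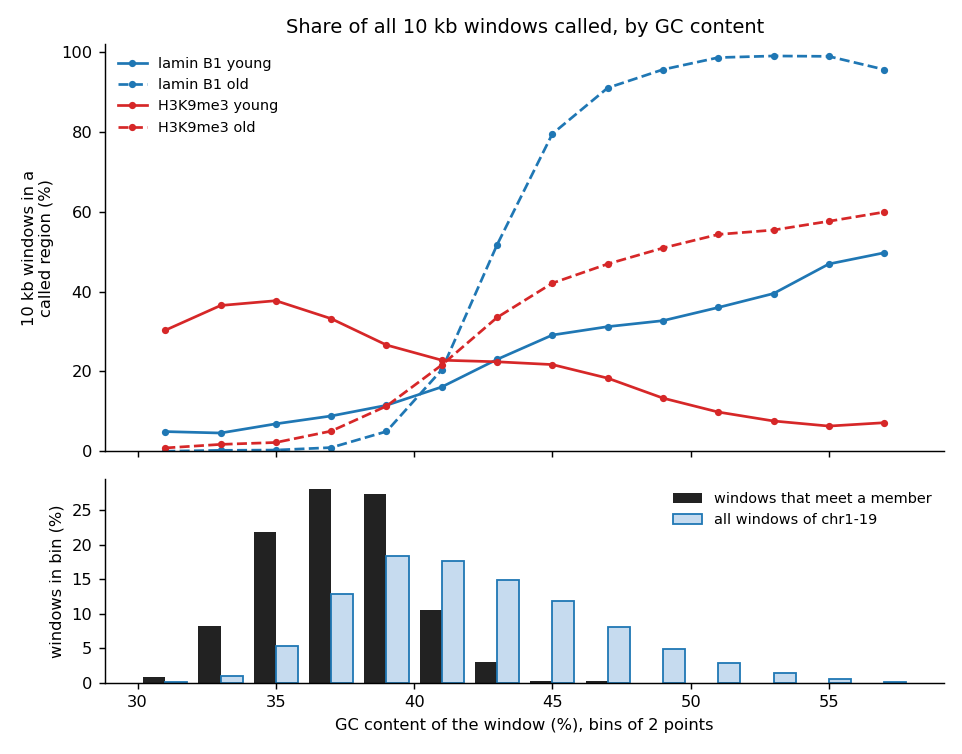
Upper panel, percent of 10 kb windows of chr1-19 inside a called region (vertical axis) by GC content in bins of 2 points (horizontal axis), with solid lines for young and dashed lines for old livers. Lower panel, percent of windows in each GC bin for windows that meet a receptor gene (black) and for all windows (light blue). Receptor windows lie mostly between 34 and 42% GC, where old lamin B1 regions cover from 0.291 to 20.4% of windows.

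H3K9me3, in contrast, was called over a part of the receptor genes, and more often in young than in old livers. The H3K9me3 lists used here held 2784 regions for young and 2496 for old livers. The study describes more H3K9me3 regions at each age than these lists hold, so a gene without a call here may lie in a region that was not analysed here. In the young list 20 of 119 genes (16.8%) were called, close to the 17.4% of all protein-coding genes. In the old list 9 of 119 (7.56%) were called, against 31.2% of all protein-coding genes. The receptor genes thus numbered fewer in the old list, whereas all protein-coding genes numbered more. By bases, 14.4% of receptor gene body sequence was covered in young and 5.5% in old livers, compared with 17.3% and 27.2% over protein-coding genes. With 1 merged list per age, this difference could not be set against a spread between mice.

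Only 5 genes were called at both ages: Vmn2r56, Vmn2r57, Vmn2r63 and Vmn2r79 on chromosome 7 and Vmn2r99 on chromosome 17. In the young list alone there were 15 genes from 7 clusters, and in the old list alone there were 4 genes from 2 clusters. The remaining 95 genes were called at neither age. Among all protein-coding genes 10.3% were called at both ages, 7.13% in young livers alone and 20.9% in old livers alone. Of these 3 kinds of call, young alone was the most frequent among the receptor genes and the least frequent among all protein-coding genes. Covered sequence divided in the same way, with 108 kb in both lists, 419 kb in the young list alone and 93.2 kb in the old list alone.

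**Figure D3:**
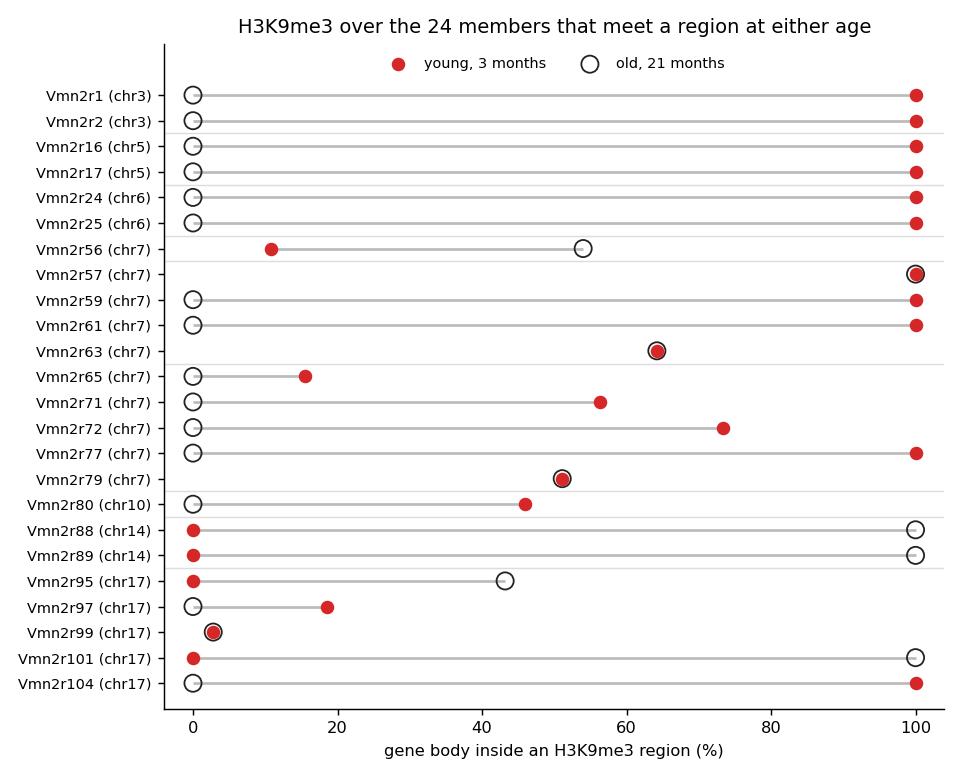
Percent of the gene body inside an H3K9me3 region (horizontal axis) for the 24 receptor genes called at either age (rows, with chromosome), in young (red dots) and old (open circles) livers, with grey lines separating clusters. In 15 genes the old value is 0% and in 4 the young value is 0%, and Vmn2r57, Vmn2r63, Vmn2r79 and Vmn2r99 have the same value at both ages.

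At the start of the family C cluster on chromosome 3, a young H3K9me3 region of 150 kb (chr3:64050001-64200000) covered 100% of Vmn2r1 (ENSMUSG00000027824.5, chr3:64081547-64109484) and of Vmn2r2. In old livers both stood at 0%, and the nearest H3K9me3 region lay 362 kb from Vmn2r1. The other 5 genes of the cluster, up to Vmn2r7, the longest of all at 160 kb, were called at neither age. On chromosome 5 a young region of 240 kb (chr5:109320001-109560000) covered the whole of Vmn2r16 and Vmn2r17, the end of the cluster that starts with Vmn2r8. An old region (chr5:109470001-109560000) began 11.5 kb beyond Vmn2r17 and covered neither. On chromosome 6 a young region of 150 kb (chr6:123770001-123920000) covered all of Vmn2r24 and Vmn2r25, which overlap each other, and no old region was nearer than 758 kb to that cluster. Vmn2r26, a receptor known for responses to peptides presented by MHC molecules, belongs to the same cluster and was called at neither age.

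On chromosome 7 the 24-gene cluster from Vmn2r29 to Vmn2r52 had no H3K9me3 call at either age, and the nearest young region lay 491 kb away. The nearest old region lay 53.4 kb away. All 34 genes of the family with fewer than 50% of words found once were absent from all 6 lists, and every gene of this cluster except Vmn2r51 and Vmn2r52 was among them. Of all 10 kb windows under 50%, 13.8% were in a young and 8.75% in an old H3K9me3 region. For lamin B1 these shares were 4.34% and 7.07%. Of 134 receptor windows under 50%, 3 were in a young and 4 in an old H3K9me3 region. Vmn2r51, with 68.2% of words found once, and Vmn2r52, with 92.3%, were not called either. In the 4-gene cluster from Vmn2r53 to Vmn2r56, only Vmn2r56 was called, with 10.8% of its body in the young and 54.0% in the old list. Those regions (chr7:12730001-12890000 and chr7:12710001-12940000) also held the zinc finger genes Zscan18, Zfp329, Zfp110 and Zfp128.

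The 7-gene cluster from Vmn2r57 to Vmn2r63 had the densest H3K9me3 of the clusters with more than 2 genes, covering 48.0% of its span in young and 33.7% in old livers. Vmn2r57 was covered to 100% at both ages, by a region that spanned 270 kb in young livers (chr7:41330001-41600000) and 260 kb in old livers. Vmn2r63 was covered to 64.2% at both ages by the same 80 kb region (chr7:42910001-42990000). Vmn2r59 and Vmn2r61 were covered to 100% in young livers and to 0% in old livers. Vmn2r60, the longest gene of this cluster at 88.4 kb, lies between them and was not called. The span also held 13 other protein-coding genes, of which 11 were called in the young and 9 in the old list.

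In the 15-gene cluster from Vmn2r65 to Vmn2r79, 5 genes were called in young and 1 in old livers. In the young list, coverage was 100% for Vmn2r77, 73.4% for Vmn2r72, 56.3% for Vmn2r71, 51.1% for Vmn2r79 and 15.5% for Vmn2r65. In old livers only Vmn2r79, the last gene of the cluster, was still covered, again to 51.1%. The young H3K9me3 region at Vmn2r65 was the shortest that met a receptor gene, at 50 kb. The share of words found once ran from 72.5 to 95.5% over the genes of this cluster.

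On chromosome 10 a young H3K9me3 region of 200 kb (chr10:78970001-79170000), which also held olfactory receptor genes, covered 45.9% of Vmn2r80. The other 3 genes of that cluster, Vmn2r81 to Vmn2r83, and the 4 genes from Vmn2r84 to Vmn2r87 were not called. The only cluster with calls in the old list and none in the young list was the pair on chromosome 14. There an old region of 100 kb (chr14:51380001-51480000) covered 100% of Vmn2r88 and Vmn2r89, and the nearest young region was 1010 kb away.

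In the 22-gene cluster of chromosome 17, 3 genes were called in young and 3 in old livers, with Vmn2r99 in both lists. Vmn2r104 was covered to 100% and Vmn2r97 to 18.5% in young livers alone. Vmn2r101 was covered to 100% and Vmn2r95 to 43.2% in old livers alone. Vmn2r99 had 2.8% of its body in each list. The 7 genes from Vmn2r111 to Vmn2r117 and the lone genes Vmn2r118 and Vmn2r120 were called at neither age. Vmn2r116, known as the receptor of the male tear peptide Esp1, was 106 kb from the nearest H3K9me3 and lamin B1 region at both ages.

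**Figure D4:**
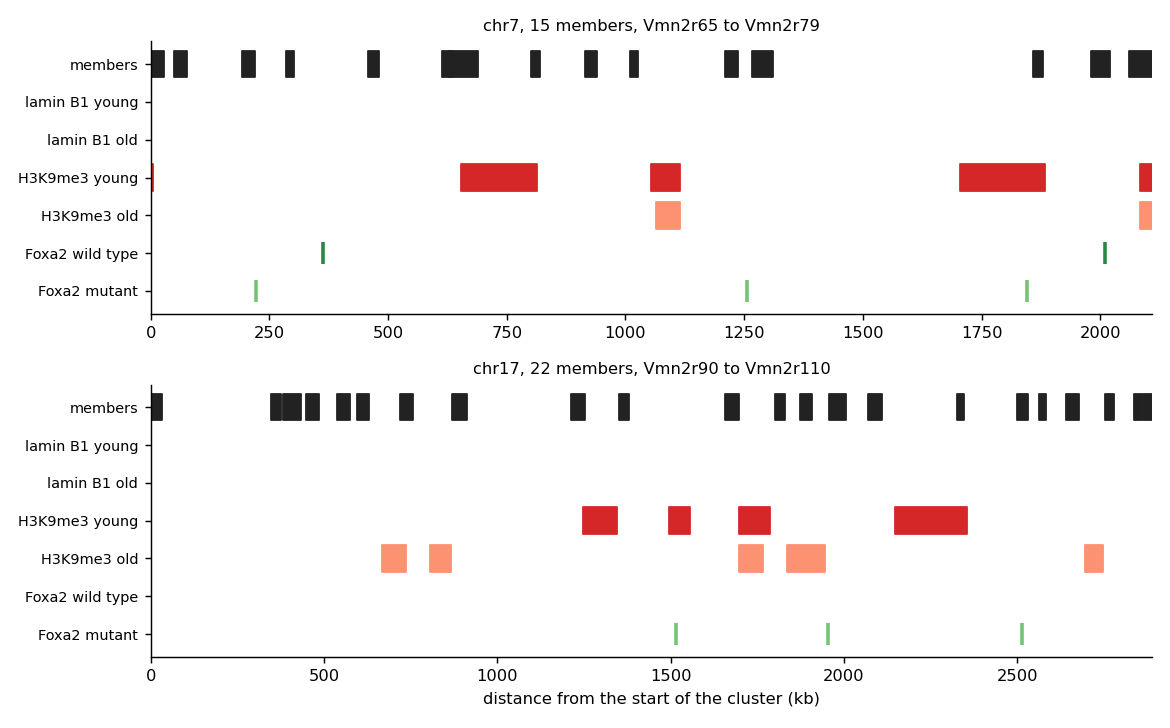
Gene bodies of the receptor genes (black), lamin B1 and H3K9me3 regions (bars) and Foxa2 sites (ticks) along the 15-gene cluster of chromosome 7 and the 22-gene cluster of chromosome 17, with distance from the start of each cluster in kb (horizontal axis). Both clusters lack lamin B1 regions, and 5 young against 2 old H3K9me3 regions meet the span on chromosome 7, and 4 against 5 that on chromosome 17.

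Taken by region, 16 young H3K9me3 regions (50 to 270 kb) and 8 old ones (70 to 260 kb) met receptor genes, and no region met more than 2 of them. The whole body was covered in 11 genes in young and 4 in old livers (9.24 and 3.36%), against 10.5 and 22.3% of protein-coding genes. The start site lay inside a region for 14 and 7 genes (11.8 and 5.88%), against 13.6 and 25.7%. Called and uncalled genes overlapped in composition. The 24 genes called at either age had a median GC content of 37.2% and a median of 80.9% of words found once. The 95 others had medians of 36.2% and 70.1%. Called genes were longer, with a median of 37.9 kb against 26.3 kb, and 1 bp of overlap counted as a call. No gene under 55.3% of words found once was called. Among the 19 genes with at least 90%, 3 were called in the young and 0 in the old list.

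The H3K9me3 lists of the 2 ages also differed in base composition across the genome. The share of 10 kb windows in a young region fell from 36.2% under 34% GC to 8.69% at 50% GC or more, and the share in an old region rose from 1.66% to 55.2%. Of the 477 windows that met a receptor gene, 67 (14.0%) were in a young and 27 (5.66%) in an old region, against 24.0% and 25.7% of all windows. Weighted to the GC content and uniqueness of the receptor windows together, all windows gave 25.2% and 6.35%. The old share of the receptor windows was thus close to the weighted share, and the young share was below it. In windows with at least 90% of words found once, 20 of 103 receptor windows were in a young and 6 in an old region, against 24.5% and 30.5% of all such windows. The part of base composition in the age difference was not tested.

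**Figure D5:**
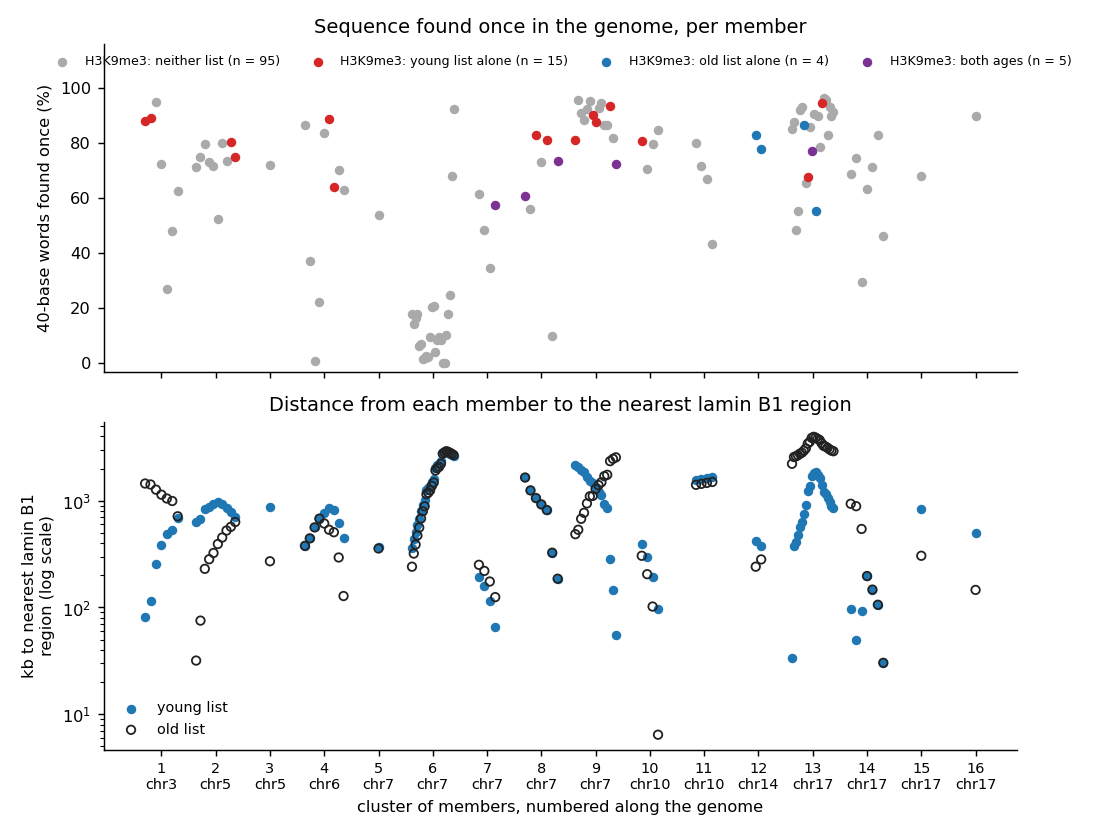
Upper panel, percent of 40-base words found once in the genome (vertical axis) for each of the 119 genes, ordered by position within the 16 clusters (horizontal axis, with chromosome) and colored by H3K9me3 call. Lower panel, distance in kb on a log scale from each gene to the nearest lamin B1 region in young (filled) and old (open) livers. Genes of cluster 6, with a cluster value of 15.3%, carry no call, and no gene has a distance of 0 kb to a lamin B1 region.

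Foxa2 sites were rare in the receptor genes. In wild-type livers 2 of 119 gene bodies (1.68%) held a site, against 11.1% of protein-coding genes, and in Zmpste24 KO livers 2 of 119 held a site, against 14.1%. No site lay at the start site of a receptor gene, where 2.13% of protein-coding genes had a wild-type and 1.28% a Zmpste24 KO site. The median distance to the nearest site was 1480 kb in wild-type and 351 kb in Zmpste24 KO livers, compared with 118 and 77.1 kb over protein-coding genes. The wild-type sites lay in introns of Vmn2r82 (chr10:79361852-79362686) and Vmn2r78 (chr7:86944625-86945441). The sites in Zmpste24 KO livers lay in an intron of Vmn2r105 (chr17:20215991-20216560) and across a coding exon of Vmn2r10 (chr5:109003226-109004137). Reads from sequence with more than 1 copy were discarded, and 64.1% of 40-base words in these gene bodies were found once. The central 300 bases of each are printed on the plus strand (mm10), as the only Foxa2 sites called in these genes. Capitals mark the forkhead core TGTTTAC on either strand.
Vmn2r82, wild type, chr10:79362120-79362419: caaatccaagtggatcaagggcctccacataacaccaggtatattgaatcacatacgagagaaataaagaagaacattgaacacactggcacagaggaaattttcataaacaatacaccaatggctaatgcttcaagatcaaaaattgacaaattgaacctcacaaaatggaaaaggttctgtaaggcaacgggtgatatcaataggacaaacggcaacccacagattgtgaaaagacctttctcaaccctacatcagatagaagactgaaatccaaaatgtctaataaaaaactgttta
Vmn2r78, wild type, chr7:86944884-86945183: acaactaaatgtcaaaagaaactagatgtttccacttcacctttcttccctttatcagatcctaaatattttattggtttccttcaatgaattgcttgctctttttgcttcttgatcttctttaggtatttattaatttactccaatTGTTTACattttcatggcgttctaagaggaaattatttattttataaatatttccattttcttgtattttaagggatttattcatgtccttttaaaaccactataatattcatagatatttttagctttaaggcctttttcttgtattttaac
Vmn2r105, Zmpste24 KO, chr17:20216126-20216425: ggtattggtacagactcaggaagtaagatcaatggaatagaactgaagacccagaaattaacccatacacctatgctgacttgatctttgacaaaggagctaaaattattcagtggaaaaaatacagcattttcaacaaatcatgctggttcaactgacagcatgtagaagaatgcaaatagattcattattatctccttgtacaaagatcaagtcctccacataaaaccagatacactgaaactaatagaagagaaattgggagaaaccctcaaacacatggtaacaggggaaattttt
Vmn2r10, Zmpste24 KO, chr5:109003532-109003831: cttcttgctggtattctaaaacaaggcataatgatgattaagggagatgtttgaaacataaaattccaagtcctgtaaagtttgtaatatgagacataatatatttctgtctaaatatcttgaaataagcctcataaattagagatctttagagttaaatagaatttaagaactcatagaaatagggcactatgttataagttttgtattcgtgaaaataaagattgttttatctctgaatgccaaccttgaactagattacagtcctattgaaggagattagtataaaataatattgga
The core occurred once, at the centre of the site in Vmn2r78, and not in the full length of the other 3 sites.

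None of the 4 sites was shared between the genotypes. Most sites of chr1-19 were not, with 72.7% of 4912 wild-type sites and 83.2% of 8051 Zmpste24 KO sites meeting no site of the other list. The nearest site of the other genotype lay 53.0 kb from that in Vmn2r10, 54.5 kb from that in Vmn2r82, 163 kb from that in Vmn2r78 and 4530 kb from that in Vmn2r105. None of them overlapped an H3K9me3 region at either age. Repeat-masked sequence made up 84.7% of the site in Vmn2r105 and 69.8% of that in Vmn2r82, but 4.39% of that in Vmn2r10. Between 81.2 and 93.8% of the words in these sites were found once. Within 10 kb outside the gene bodies there were 6 further sites, all in Zmpste24 KO livers, beside Vmn2r1, Vmn2r15, Vmn2r27, Vmn2r67, Vmn2r76 and Vmn2r102. These 6 genes are 5.04% of the 119, and 6.84% of protein-coding genes had a Zmpste24 KO site in the flank alone. The closest, beside Vmn2r67, lay 571 bp from its start, and that beside Vmn2r27 held a forkhead core. The site beside Vmn2r1 lay 4249 bp before its start, inside the young H3K9me3 region described above. In all, 10 of the 119 genes (8.4%) had a Foxa2 site of either genotype in the body or within 10 kb, against 28.8% of protein-coding genes. The Zmpste24 KO list was the longer, with 8177 sites against 4960. Among RefSeq promoters, the core was present in 1 of 114 belonging to receptor genes (0.877%), that of Vmn2r16, and in 3.71% of 31396 promoters.

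Most other chemosensory families also had few lamin B1 calls, with the trace amine receptors as the exception in the old list. The 207 type 1 vomeronasal receptor genes (Vmn1r) serve the apical neurons of the vomeronasal organ. Of these, 1 (0.483%) was called in the young and 0 in the old lamin B1 list. Of 1087 olfactory receptor genes (Olfr), 35 (3.22%) and 85 (7.82%) were called, against 40.9% and 68.3% of all protein-coding genes. In the H3K9me3 lists the type 1 receptors changed little in number, with 30 (14.5%) in young and 32 (15.5%) in old livers. The olfactory receptors went from 289 (26.6%) to 101 (9.29%). Among all protein-coding genes, 17.4% were called for H3K9me3 in young and 31.2% in old livers. The olfactory receptors had a GC content of 37.6%, near the 37.0% of the type 2 receptors, and 88.5% of their words were found once. Of 7 formyl peptide receptor genes, which are neighbours of receptor clusters on chromosome 17, Fpr-rs3 was called for H3K9me3 at both ages and none met lamin B1. Of 15 trace amine receptor genes, with a GC content of 46.5%, 8 (53.3%) were called in the old lamin B1 list and none in another list. That share is below the 68.3% of all protein-coding genes. All 15 are neighbours on chromosome 10 and can share regions. No family was tested against another, since the lists have no replicates.

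Calls in genes for ligands, partners and relatives of the receptors are given beside the shares of all protein-coding genes, 40.9% and 68.3% for young and old lamin B1 and 17.4% and 31.2% for H3K9me3. Of 15 exocrine gland peptide genes, Esp22, Esp23 and Esp24 were covered to 100% by H3K9me3 in young livers alone. Among 22 major urinary protein genes, which code for liver-made pheromones, Mup5 was covered to 100% in all 4 lamin B1 and H3K9me3 lists. Foxa2 calls of Zmpste24 KO livers also covered 79.3% of the Mup5 body, far more than a typical site covers. Mup21 was covered by H3K9me3 at both ages and Mup3 in young livers alone. The major urinary protein genes were repeated even more than the receptors, with 29.2% of words found once. Of 9 H2-M genes, whose products join type 2 receptors at the surface of vomeronasal neurons, H2-M10.2, H2-M10.5 and H2-M10.6 were called in the old lamin B1 list and in no other. A list of 10 genes drawn up for vomeronasal signal transduction, which also included B2m and Calr4, had a GC content of 46.6%. All 10 (100%) met an old lamin B1 region. Trpc2, the cation channel of the pathway, Gnai2 and Gnb1 met a young one too. Gnao1, the G protein subunit of neurons with type 2 receptors, had a GC content of 48.7%. It was covered to 100% by old lamin B1 and old H3K9me3 regions and to 0% by young ones. Of all 10 kb windows of 46 to 50% GC, 92.7% were in an old and 31.8% in a young lamin B1 region. For H3K9me3 these shares were 48.4% in old and 16.4% in young livers. The part of GC content in the calls of these 10 genes was not tested. Of 15 other class C receptors, 6 (40%) met a young and 8 (53.3%) an old lamin B1 region, and 8 (53.3%) were called for H3K9me3 at each age. Casr, the calcium-sensing receptor and a close relative of the type 2 vomeronasal receptors, was covered by H3K9me3 to 96.9% in young and 100% in old livers.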

How the data were processed

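Called regions from ChIP-Seq of liver were analysed for lamin B1, H3K9me3 (each at 2 ages) and Foxa2 (in 2 genotypes). Reads had been mapped to mm10 by the authors using BWA. Picard took out duplicates, alignments at more than 1 place were dropped, and replicates were pooled. Lamin B1 regions come from Epic, which follows SICER, in windows of 10 kb, and Foxa2 sites from PeakSeq with input as control. The submitters' processing notes name SICER; the caller of the H3K9me3 regions is not given in the sources used here. The deposited values, per the file headers, are positions of called regions with no signal or score. Each list was matched to its condition by its name. H3K9me2 was not analysed here.

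Positions are given with the first base counted as 1. Gene bodies came from GENCODE vM21 and sequence from GRCm38.p6, of which chromosomes and unplaced contigs were searched for word copies. Overlap needed 1 bp. Windows were weighted by bins of GC content and of words found once. All counts are descriptions without a test, because each condition has 1 merged list. The receptor genes and gene lists were chosen with earlier results of these data known. Named receptor genes are the first, last and longest of each cluster and the lone genes, those with a Foxa2 site in the body or within 10 kb, the 5 with the largest covered share per list and the 10 with the largest difference between ages. Further receptor genes were named after their values were seen. Overlap, distance, cluster and word counts were checked on simulated data. Python 3.11.15, numpy 2.4.6, pandas 2.3.3, numba 0.67.0 and matplotlib 3.10.9 were used. Alternatives to the overlap, the gene body, the gene set and the regions were computed.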

Additional observations from a re-analysis of the deposited data

How the results depend on the processing

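Of 73 alternative values, 56 stayed within the limits set for them and 17 moved. For lamin B1, only extended bodies and added pseudogenes could raise a gene count of 0, since the other alternatives can only lower it. In the young list the count stayed at 0 with bodies extended by 10 kb and became 3 of 234 (1.28%) with pseudogenes. In the old list it became 1 with extended bodies and 2 of 234 (0.855%) with pseudogenes. The 56 include lamin B1 values of 0 that could not move. For H3K9me3 in young livers, the count of 20 of 119 (16.8%) became 39 of 234 (16.7%) with pseudogenes and 10 of 68 (14.7%) without chromosome 7. For H3K9me3 in old livers, the count of 9 of 119 (7.56%) became 16 with extended bodies, 22 of 234 (9.4%) with pseudogenes and 5 of 68 (7.35%) without chromosome 7. Genes called for H3K9me3 at both ages numbered 3 where 50% of the body had to be covered. For Foxa2, a site at the start gave 0 in both genotypes. Requiring 50% of the body also gave 0, but this was fixed in advance. The sites in receptor genes are 570 to 912 bp long and the shortest receptor gene body is 9.9 kb. These values for 50% of the body are counted among the 17 that moved. In wild-type livers the 2 of 119 (1.68%) became 4 of 234 (1.71%) with pseudogenes and 1 of 68 (1.47%) without chromosome 7. Extended bodies gave 8 in Zmpste24 KO livers. Words of 60 bases raised the share found once from 64.1% to 73.0%. The number of clusters, an alternative chosen after seeing the data, was 18 with a gap of 0.5 Mb and 13 with 2 Mb, against 16. No paired analysis was possible because the replicates of each condition had been merged into 1 list, and for the same reason no replicate could be left out. Depth per list was not used here. The study reports more aligned reads in old than in young livers for H3K9me3, and fewer for lamin B1. The part of depth in the differences between ages was not tested.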

Other observations

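Of the 115 Vmn2r pseudogenes of chr1-19, 80 lie inside the cluster spans. Lamin B1 calls were rare among the 115, at 3 (2.61%) for the young list and 2 (1.74%) for the old one. All protein-coding genes reached 40.9% and 68.3% there. For H3K9me3, 19 pseudogenes (16.5%) were called at the young age and 13 (11.3%) at the old age. The young share was thus near the 17.4% of all protein-coding genes, and the old share was below their 31.2%. Of the words in the pseudogenes, 51.3% were found once. The gene rule left out Vmn2r121 on the X chromosome, a protein-coding gene, and Vmn2r125 on chromosome 4, a pseudogene, and neither met a region of any list. The other protein-coding genes inside the cluster spans, 47 in number, met young H3K9me3 regions in 15 cases and old H3K9me3 regions in 12. A young lamin B1 region was met in 1 case and an old one in 0, so lamin B1 calls were also rare among these neighbours. Shares over all protein-coding genes were 17.4% and 31.2% for young and old H3K9me3 and 40.9% and 68.3% for young and old lamin B1.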
